A study of Homo sapiens with 4 samples.

Results

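The 35 genes described here form the ATF4 stress response and amino acid supply programme: ATF4 and its partner transcription factors, a pair of kinases that sense stress upstream of it, genes it is known to switch on, the enzymes of serine, glycine, proline, asparagine and cysteine synthesis, one-carbon enzymes and amino acid transporters. They were taken by symbol from a list chosen with earlier results of these data known. All 35 were present among the 25277 symbols of the deposited table. The samples were 4 cultures of the human mantle cell lymphoma lines Mino and Z138, B cell cancer lines that grow in suspension. Each line was present as a culture carrying a stable small hairpin against the kinase BTK (shBTK) and as one carrying a vector labelled sc4, the control, and all 4 had received doxycycline for 48 hours to switch on the tet-on vector. The groups were Mino shBTK, Mino control, Z138 shBTK and Z138 control, with 1 RNA sequencing library each, so a difference within a line has no replicate check. Each group was 1 stably transfected culture, the labels do not say what the sc4 vector expressed, and no second BTK hairpin was analysed here. Effects of BTK loss and other effects of the hairpin therefore cannot be told apart.

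The integrated stress response starts when a kinase such as PERK (EIF2AK3), which senses unfolded protein in the endoplasmic reticulum, or GCN2 (EIF2AK4), which senses uncharged tRNA, phosphorylates the initiation factor eIF2. General translation then slows, while the mRNA of ATF4 is translated more efficiently. ATF4 is a basic leucine zipper factor that pairs with C/EBP proteins and raises transcription of genes that make, import and spare amino acids, and under prolonged stress also of genes linked to cell death. Because ATF4 is controlled largely at translation, its mRNA level is not a measure of its activity. Growing lymphoid cells draw on serine, glycine, asparagine and glutamine for protein and nucleotide synthesis.

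ATF4 and C/EBP factors bind as pairs to a composite element whose core is TGATGNAA on either strand. Promoter sequence was available in the RefSeq table (GRCh38.p14, 250 bases before to 50 after each start site) for 28 of the 35 genes, with 48 start sites. The absent genes were NUPR1, PSPH, PYCR1, GPT2, SHMT2, ALDH1L2 and SLC7A11. The core was found at 9 of the 28 genes (32.1%), against 4.46% of 27305 symbols in the table and 2.51% of the 8479 tested symbols that the table holds. Counted by start site, it was found at 22.9% of the 48, against 3.62% of all 35116 in the table. The list includes genes chosen as known ATF4 targets, so a higher share is not a finding of these data. Start sites of a gene can overlap, and a match is a description of letters, not evidence of binding. The matches, which the ratios given later can be read against, are shown 5′ to 3′ on the gene's strand, with the core in capitals:
ASNS: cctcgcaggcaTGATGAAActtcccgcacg
CHAC1: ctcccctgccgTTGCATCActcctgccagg
CEBPG: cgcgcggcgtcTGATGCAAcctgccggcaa
ATF3: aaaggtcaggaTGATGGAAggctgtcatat
SLC1A5: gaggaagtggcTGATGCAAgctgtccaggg
SLC1A4: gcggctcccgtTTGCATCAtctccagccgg
MTHFD1L: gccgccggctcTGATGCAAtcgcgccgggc
SLC7A1: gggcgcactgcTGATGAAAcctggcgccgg
SLC3A2: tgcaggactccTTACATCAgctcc

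The ASNS stretch lies at chr7:97872458-97872487 on the minus strand, with the core starting 68 bases before the start site, and GENCODE 29 also places it in an untranslated exon of an ASNS transcript and over AC079781.5. The CHAC1 stretch lies at chr15:40953251-40953280, 209 bases before the start, in an annotated untranslated exon. CEBPG (chr19:33374060-33374089, 42 bases before the start) and SLC1A4 (chr2:64989381-64989410, 7 bases before a start, so that it reaches the start itself) have the core in an intron of a longer transcript. In ATF3 (chr1:212565205-212565234) it lies 191 bases before the start, upstream of every annotated transcript. In SLC1A5 (chr19:46784893-46784922, minus strand) it lies 97 bases before a start site and within an untranslated exon. In MTHFD1L (chr6:150866346-150866375) it is upstream of some start sites and in an untranslated exon of other transcripts. In SLC7A1 (chr13:29595663-29595692, minus strand) and SLC3A2 (chr11:62881725-62881748) it lies just after a start site, in an untranslated exon. The genes ATF4, ATF5, DDIT3, TRIB3 and PSAT1 were among those with no match in this window.

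Values were deposited as FPKM, fragments scaled by transcript length and by the fragments mapped in the library, so levels of different genes can be set side by side. How deeply each library was read is unknown. Summed FPKM per library ran from 669013 to 740192, and 14953 to 16007 symbols were above 0 in a library. BTK, the target, was at 9.84 FPKM in Mino shBTK against 37.0 in Mino control, and at 12.4 FPKM in Z138 shBTK against 51.0 in Z138 control. All 6 B cell markers checked, among them CD79A and PAX5, were at 3.34 FPKM or more in every library. SOX11, a mantle cell lymphoma marker, was at 19.8 to 23.6 FPKM in all 4 libraries. CD5, another such marker, was at 1.70 and 2.33 FPKM in Mino shBTK and control. In Z138 shBTK and control CD5 was at 0.0531 and 0.0751 FPKM. CCND1, whose rearrangement defines the disease, was at 600.5 and 591 FPKM in Z138 shBTK and control and at 2.62 and 3.18 FPKM in Mino shBTK and control. Whether the low Mino value reflects the line or the annotation behind the FPKM values was not tested. Of the 3 epithelial markers, all were above 1 FPKM in Mino, with a sum of 36.1 FPKM in Mino shBTK and 38.8 in Mino control, while the myeloid and erythroid markers were under 1 FPKM in every library. Of the T cell markers, CD3E was at 2.07 and 1.69 FPKM and CD3G at 2.48 and 2.71 FPKM in Z138 shBTK and control, both were under 1 FPKM in Mino, and CD2 was listed at 0 throughout. The fibroblast marker COL1A1 was at 3.57 and 4.55 FPKM in Mino shBTK and control and under 1 FPKM in Z138, and DCN was listed at 0 throughout. The Z138 control library stood apart: EEF1A1, a translation factor among the most abundant mRNAs elsewhere, was listed at 0 there and at 6404 FPKM or more in the other 3, and it shared no common step among low values with the others (3.30% to 4.005% of low genes in pairs with it, against 9.05% to 12.6% in pairs of the other 3). Across 10477 genes, the Z138 log2 ratio went down with GC content of the transcript (Spearman rho −0.57, a relation across genes of the same 2 libraries), whereas in Mino rho was 0.11. Removing that trend and a trend on length (GC-corrected ratios) turned the Z138 sign of 8 of the 32 genes described below and the Mino sign of 0. ATF4, CHAC1, SESN2 and CBS became positive in Z138 (0.03, 0.09, 0.02 and 0.04), and PSAT1, SLC38A2, CEBPG and EIF2AK4 negative (−0.10, −0.16, −0.0016 and −0.01).

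In Mino, most genes of the programme were at higher levels with the BTK hairpin. Ratios are differences of log2(FPKM + 1), which understate changes of low genes, and 32 of the 35 genes had a mean of at least 1 FPKM and entered the comparison. Of these 32 genes, 28 were above 0 in Mino and 18 had a log2 ratio of at least 0.32 (25% higher in Mino shBTK, the bar for a gene called higher in a line), where 47.7% and 4.44% of all 11484 tested symbols did. None of the 32 reached the same bar downwards, where 5.75% of all symbols did. In bulk RNA, a smaller share of expressing cells and less RNA per cell cannot be told apart. The median log2 ratio in Mino was 0.37 for the 32 genes and −0.01 for all tested symbols. Because the list was chosen with earlier results of these data known, these comparisons with all symbols are a description. At 1.5-fold, 5 genes were higher, namely CHAC1, TRIB3, CBS, PSAT1 and CEBPB, where 0.923% of all symbols were, and 0 were lower (1.24%). Z138 did not show this: 11 of 32 were above 0 (55.3% of all symbols), 0 passed the bar of 0.32 upwards (5.32%), 1 passed it downwards (4.17%), 0 were 1.5-fold higher (0.94%) or lower (0.819%), and the median was −0.08, beside 0.03 for all symbols. No test of this contrast between Mino and Z138 could be run on 1 pair each, so it was not tested.

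**Figure D1:**
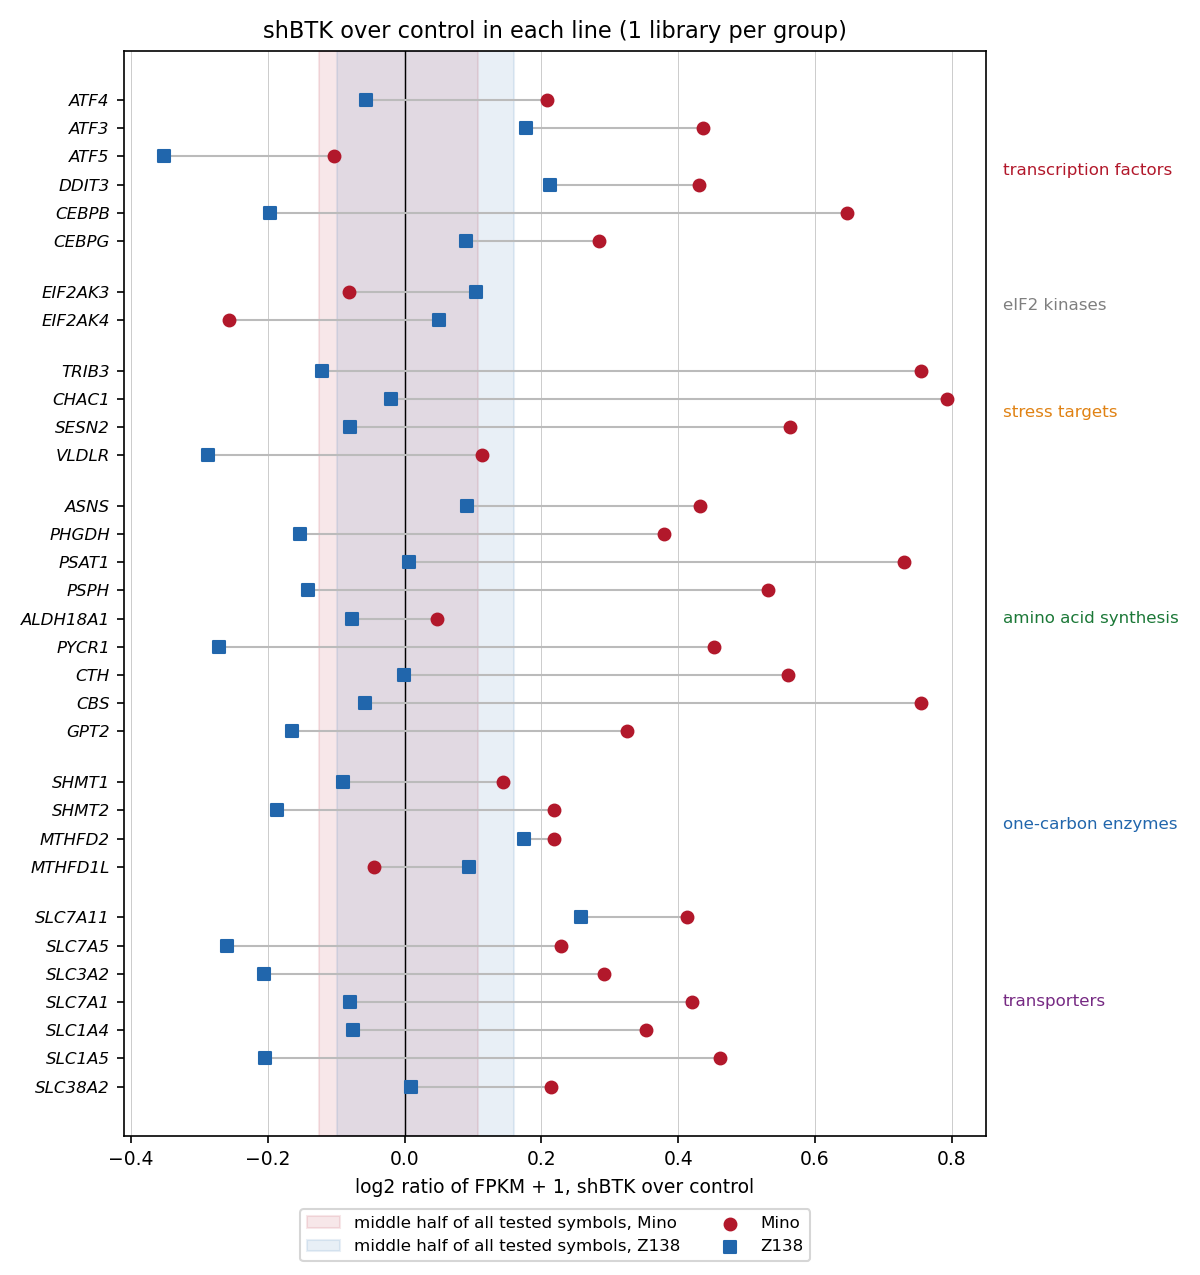
Log2 ratio of FPKM + 1, shBTK over control, for each of the 32 tested genes in Mino (red circles) and Z138 (blue squares), grouped by role, with 1 library per group. The shaded bands are the interquartile ranges of all tested symbols. Most Mino points lie right of the band, up to 0.79, while Z138 points lie between −0.35 and 0.26.

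Of the transcription factors, ATF4 itself was abundant in every library and differed little: 805.8 FPKM in Mino shBTK against 697.6 in Mino control, and 895.8 FPKM in Z138 shBTK against 931.9 in Z138 control. The hairpin library was the higher one in Mino, while the small Z138 log2 ratio of −0.06 became 0.03 when GC-corrected, so its sign in Z138 depended on the correction. ATF5, a related factor also under translational control, was the most abundant of the 35 genes, at 3403 FPKM in Mino shBTK against 3655 in Mino control and at 1348 FPKM in Z138 shBTK against 1721 in Z138 control. It ranked 35th and 30th of all symbols in Mino shBTK and Mino control. ATF5 was the 1 gene of the 32 below its control in both lines and the 1 gene past the bar downwards in Z138, with log2 ratios of −0.10 (Mino) and −0.35 (Z138) (GC-corrected, −0.25 in Z138).

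DDIT3, which encodes the stress factor CHOP, was at 150.2 FPKM in Mino shBTK against 111 in Mino control and at 134 FPKM in Z138 shBTK against 115 in Z138 control. ATF3, another stress-induced factor, was at 31.8 FPKM in Mino shBTK against 23.2 in Mino control and at 15.1 FPKM in Z138 shBTK against 13.3 in Z138 control. Both hairpin libraries were thus above their own controls for DDIT3 and ATF3, and the log2 ratios were 0.43 and 0.21 for DDIT3 and 0.44 and 0.18 for ATF3 in Mino and Z138. CEBPB, a C/EBP partner, was at 25.8 FPKM in Mino shBTK against 16.1 in Mino control, and at 34.8 FPKM in Z138 shBTK against 40.0 in Z138 control, so that the lines went opposite ways. CEBPG, the dimer partner of ATF4 with the core element shown above, had log2 ratios of 0.28 (Mino) and 0.09 (Z138), and GC-corrected ratios of 0.30 in Mino and close to 0 in Z138.

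The kinases upstream of ATF4 did not share the Mino pattern. EIF2AK3 (PERK) was at 11.3 FPKM in Mino shBTK against 12.0 in Mino control and at 20.5 FPKM in Z138 shBTK against 19.04 in Z138 control. EIF2AK4 (GCN2) was at 10.7 FPKM in Mino shBTK against 12.9 in Mino control and at 5.10 FPKM in Z138 shBTK against 4.89 in Z138 control. In Mino both were lower in the hairpin library, with log2 ratios of −0.08 for EIF2AK3 and −0.26 for EIF2AK4.

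Among the stress targets, the highest Mino ratios of the programme were found. CHAC1, a gamma-glutamylcyclotransferase that breaks down glutathione, was at 91.2 FPKM in Mino shBTK against 52.3 in Mino control and at 61.0 FPKM in Z138 shBTK against 61.8 in Z138 control. TRIB3, a pseudokinase that feeds back on ATF4 and CHOP, was at 239 FPKM in Mino shBTK against 141 in Mino control and at 302 FPKM in Z138 shBTK against 328 in Z138 control. The log2 ratio of CHAC1 was 0.79 in Mino and −0.02 in Z138, and that of TRIB3 0.76 in Mino and −0.12 in Z138. For CHAC1 the Mino hairpin library stood above the other 3, whereas for TRIB3 the Mino control library stood below the other 3. SESN2, which restrains mTORC1 when leucine is scarce, was at 73.9 FPKM in Mino shBTK against 49.7 in Mino control and at 48.8 FPKM in Z138 shBTK against 51.7 in Z138 control, and here again Mino shBTK stood alone. VLDLR, a lipoprotein receptor induced by ATF4, was at 5.91 FPKM in Mino shBTK against 5.39 in Mino control and at 35.2 FPKM in Z138 shBTK against 43.2 in Z138 control. Its antisense gene VLDLR-AS1 was at 2.72 and 3.38 FPKM in Z138 shBTK and Z138 control, and without a stated strand setting reads of the pair cannot be told apart. NUPR1, a stress-induced chromatin protein, was listed at 0 in all 4 libraries, and STC2, a secreted glycoprotein, was at or under 0.00890 FPKM in every library, so neither entered the comparison.

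**Figure D2:**
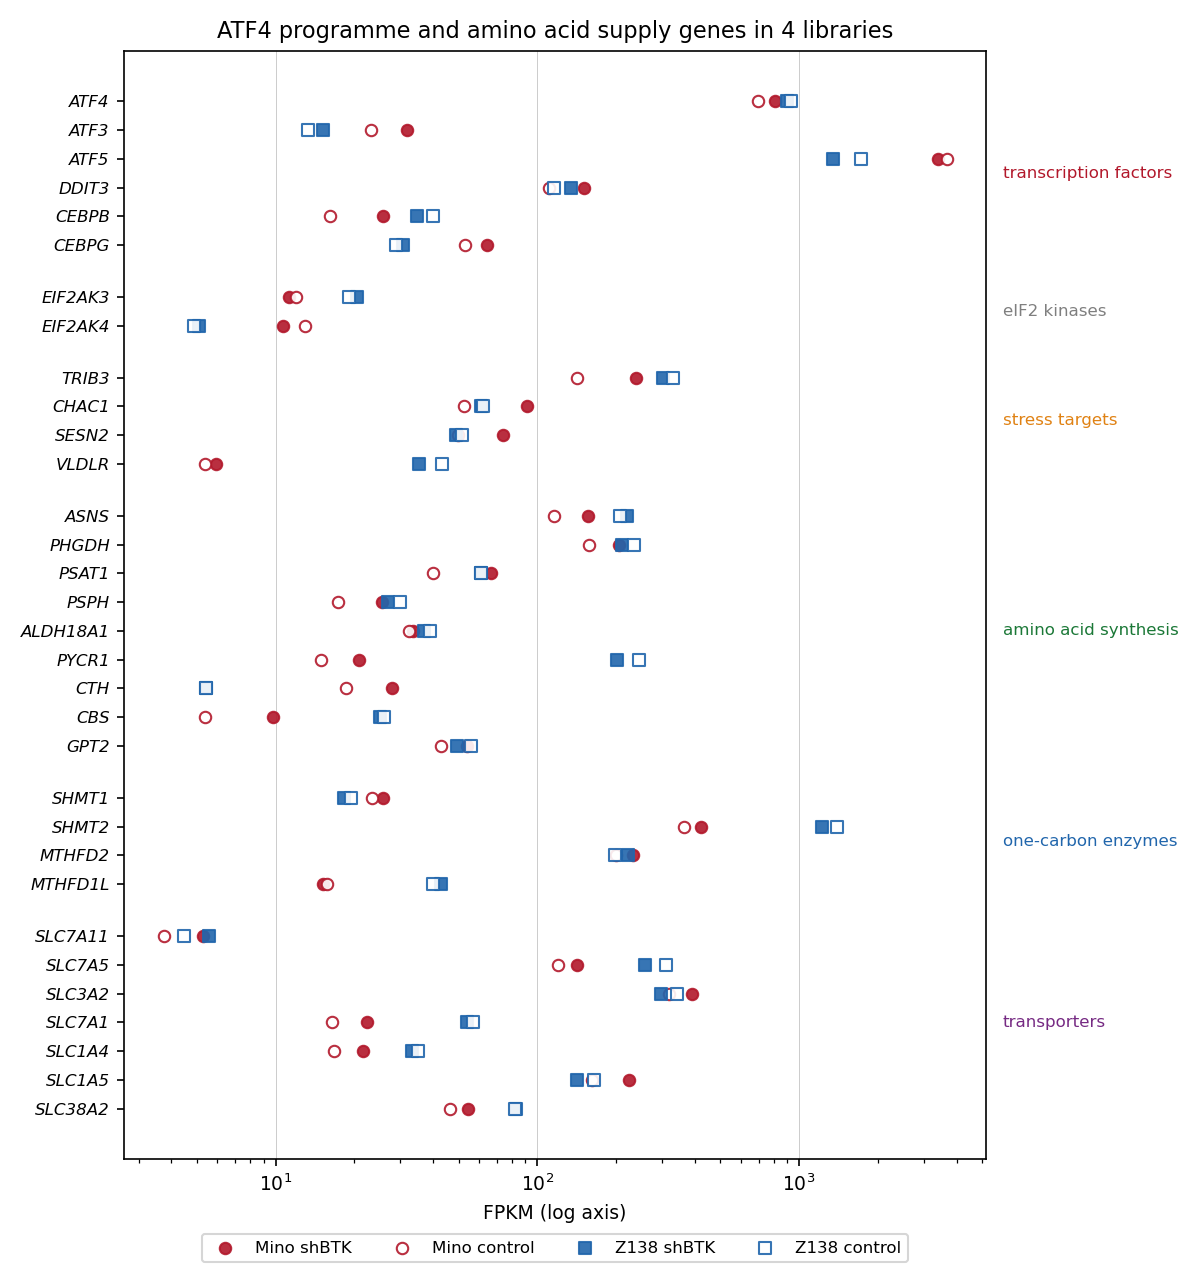
FPKM (log axis) of the 32 tested genes in Mino shBTK and Mino control (filled and open red circles) and Z138 shBTK and Z138 control (filled and open blue squares), 1 library each. For CHAC1 and SESN2 the Mino shBTK library is above the other 3; for TRIB3 and CBS the Mino control library is below the other 3; PYCR1, VLDLR and SHMT2 separate the lines.

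Of the synthesis enzymes, all 9 were above 0 in Mino, 8 of the 9 passed the bar of 0.32, and their log2 ratios ran from 0.05 to 0.76 with a median of 0.45. In Z138, 2 of the 9 were above 0, with a range of −0.27 to 0.09. Serine is made from a glycolytic intermediate by PHGDH, PSAT1 and PSPH in turn. PHGDH was at 205 FPKM in Mino shBTK against 158 in Mino control and at 210.2 FPKM in Z138 shBTK against 234 in Z138 control. PSAT1 was at 66.7 FPKM in Mino shBTK against 39.8 in Mino control and at 61.2 FPKM in Z138 shBTK against 60.9 in Z138 control. PSPH was at 25.6 FPKM in Mino shBTK against 17.4 in Mino control and at 26.9 FPKM in Z138 shBTK against 29.8 in Z138 control. For all of the serine enzymes the Mino control library was the lowest of the 4.

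ASNS, which makes asparagine and whose promoter holds the core element, was at 156 FPKM in Mino shBTK against 115 in Mino control and at 220.4 FPKM in Z138 shBTK against 207 in Z138 control. Both hairpin libraries were above their controls, by log2 ratios of 0.43 (Mino) and 0.09 (Z138). CBS and CTH carry homocysteine sulfur to cysteine. CBS was at 9.80 FPKM in Mino shBTK against 5.40 in Mino control, and at 24.98 FPKM in Z138 shBTK against 26.0 in Z138 control. CTH was at 27.9 FPKM in Mino shBTK against 18.6 in Mino control and at 5.42 and 5.43 FPKM in Z138 shBTK and Z138 control. The pair thus had log2 ratios of 0.76 for CBS and 0.56 for CTH in Mino, and of −0.06 for CBS and under 0.01 in size for CTH in Z138.

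Proline is made from glutamate by ALDH18A1 and PYCR1. ALDH18A1 was the synthesis gene with the smallest Mino difference, at 33.5 FPKM in Mino shBTK against 32.4 in Mino control, and it was at 36.9 FPKM in Z138 shBTK against 39.0 in Z138 control. PYCR1 was at 20.8 FPKM in Mino shBTK against 14.9 in Mino control and at 202 FPKM in Z138 shBTK against 244 in Z138 control, so it was higher with the hairpin in Mino and lower in Z138. GPT2, the mitochondrial alanine transaminase, had log2 ratios of 0.33 (Mino) and −0.16 (Z138).

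One-carbon enzymes, which pass carbon from serine to folate, had smaller Mino ratios, from −0.04 to 0.22, and 0 of the 4 tested reached 0.32 in either line. SHMT2, the mitochondrial serine hydroxymethyltransferase, was at 422 FPKM in Mino shBTK against 363 in Mino control and at 1222 FPKM in Z138 shBTK against 1391 in Z138 control. Its cytosolic counterpart SHMT1 was at 25.8 FPKM in Mino shBTK against 23.3 in Mino control and at 18.2 FPKM in Z138 shBTK against 19.5 in Z138 control. In both lines the mitochondrial enzyme was thus the more abundant by far, and both enzymes were higher with the hairpin in Mino and lower with it in Z138. MTHFD2, the next mitochondrial enzyme, was at 232 FPKM in Mino shBTK against 199 in Mino control and at 223 FPKM in Z138 shBTK against 197 in Z138 control, above the control in both lines. The Z138 log2 ratio of MTHFD2, 0.17, was 0.05 when GC-corrected. MTHFD1L, which releases formate from mitochondria, was at 15.2 FPKM in Mino shBTK against 15.7 in Mino control and at 42.7 FPKM in Z138 shBTK against 39.9 in Z138 control. ALDH1L2, a mitochondrial enzyme that oxidises formyl folate, was at or under 0.0197 FPKM in every library.

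All 7 amino acid transporters were above 0 in Mino, with log2 ratios from 0.21 to 0.46, and 4 of them (SLC1A5, SLC7A1, SLC7A11 and SLC1A4) passed 0.32 in Mino. In Z138, 2 of the 7 were above 0. SLC1A5, a glutamine and neutral amino acid exchanger, was at 224 FPKM in Mino shBTK against 162 in Mino control and at 142 FPKM in Z138 shBTK against 164 in Z138 control. The control levels of the lines were nearly equal, and the hairpin libraries lay on either side of them. SLC3A2 is the heavy chain that carries the light chains SLC7A5, a leucine transporter, and SLC7A11, a cystine importer, to the surface. SLC3A2 was at 391 FPKM in Mino shBTK against 319.7 in Mino control and at 296 FPKM in Z138 shBTK against 342 in Z138 control. SLC7A5 was at 141 FPKM in Mino shBTK against 120.5 in Mino control and at 259 FPKM in Z138 shBTK against 310.1 in Z138 control. Both were higher with the hairpin in Mino and lower in Z138. SLC7A5 has near copies in the table. SLC7A5P1 was at 5.001 FPKM in Z138 shBTK and 1.90 in Z138 control, and SLC7A5P2 was under 1 FPKM in every library, so the value of SLC7A5 is uncertain by the reads it shares with them.

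SLC7A11 was far less abundant than its heavy chain, at 5.30 FPKM in Mino shBTK against 3.74 in Mino control and at 5.55 FPKM in Z138 shBTK against 4.48 in Z138 control. It had the highest Z138 ratio of the 32 genes, 0.26, which was 0.05 when GC-corrected. SLC7A1, an arginine and lysine transporter, was at 22.3 FPKM in Mino shBTK against 16.4 in Mino control and at 53.7 FPKM in Z138 shBTK against 56.8 in Z138 control. SLC1A4, a serine and alanine exchanger, had log2 ratios of 0.35 (Mino) and −0.08 (Z138), and SLC38A2, a glutamine transporter induced by amino acid shortage, had 0.21 and 0.01.

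Across both lines, no gene of the programme passed the test. It was a limma linear model of log2(FPKM + 1) with line and hairpin as terms, in which the 2 lines are the only replication. Its p-values set the mean ratio of the 2 lines against the spread between them, moderated across symbols. A ratio far from 0 in 1 line alone widens that spread, so the test has little power for it. A high p does not mean that the lines disagreed. At an adjusted p under 0.05 (Benjamini-Hochberg over 11484 symbols), 0 of 32 genes were called, 0 as higher and 0 as lower, where 0.122% of all symbols were (0.061% in each direction). Without adjustment, 2 of 32 had a p under 0.05, where 2.79% of all symbols did. They were DDIT3 (mean log2 ratio 0.32, SE 0.12, higher in 2 of 2 lines, adjusted p = 1.00 in limma) and SLC7A11 (0.34, SE 0.14, higher in 2 of 2 lines, adjusted p = 1.00 in limma). The GC-corrected mean ratio of SLC7A11 was 0.28. The largest mean ratio was that of CHAC1, 0.39 (SE 0.19, adjusted p = 1.00 in limma). Its log2 ratios were 0.79 in Mino and −0.02 in Z138, and 0.78 and 0.09 when GC-corrected.

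Signs were compared next, over pairs of libraries that share no sample. Of the 32 genes, 8 were above 0 in both lines, where 23.1% of all symbols were: ATF3, DDIT3, CEBPG, ASNS, PSAT1, MTHFD2, SLC7A11 and SLC38A2. For PSAT1 and SLC38A2 the Z138 ratio was no larger than 0.01. In 20 of 32 the ratio was above 0 in Mino and below 0 in Z138, where 24.1% of all symbols were. In 11 of these the ratio was at least 0.1 in size in each line, where 8.94% of all symbols were. On GC-corrected ratios, 9 were above 0 in both lines (23.3% of 10788 symbols), 19 were above 0 in Mino and below 0 in Z138 (27.9%), and 10 of these were at least 0.1 in size in each line (8.15%). ATF3, DDIT3, ASNS, MTHFD2 and SLC7A11 were above 0 in both lines with and without the correction. With it, the Z138 ratios of ASNS, MTHFD2 and SLC7A11 were 0.06, 0.05 and 0.05. GC-corrected, the medians of the 32 genes were 0.38 in Mino and −0.08 in Z138.

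**Figure D3:**
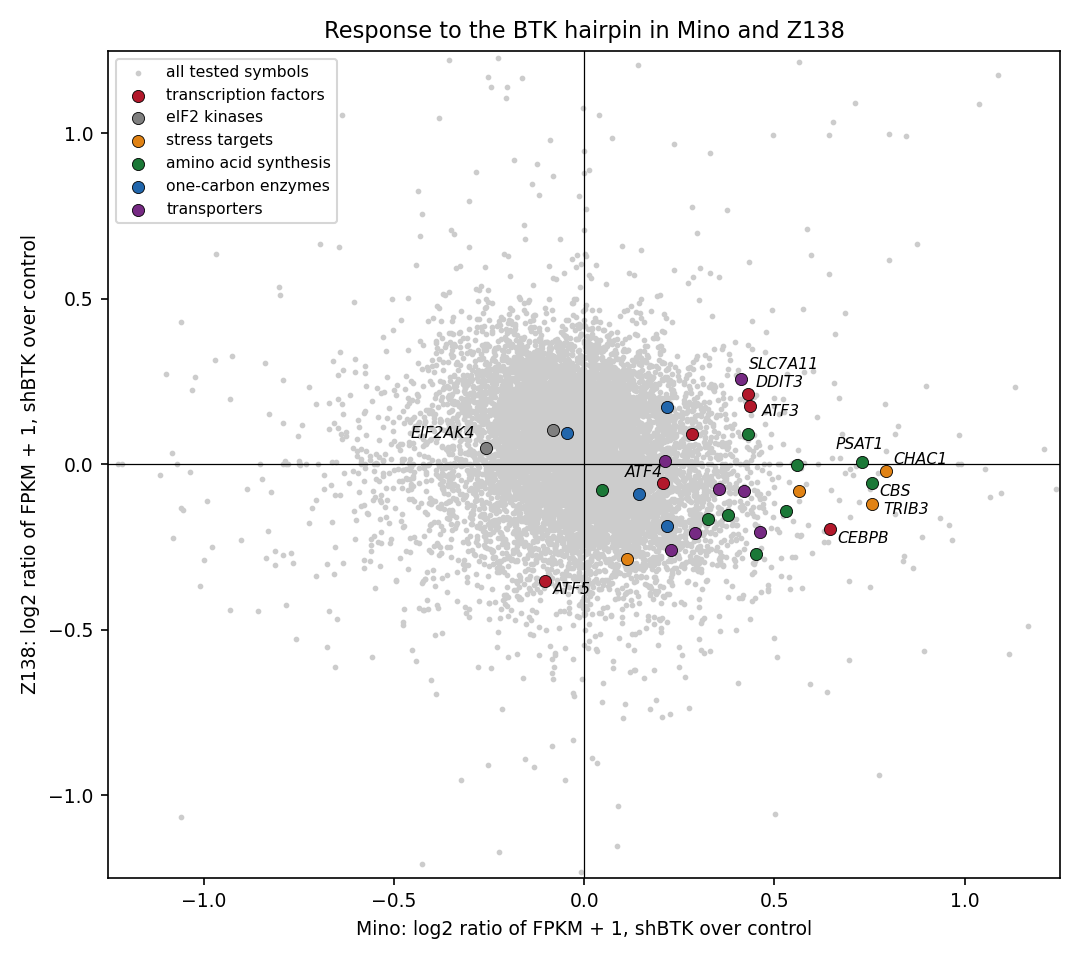
Log2 ratio of FPKM + 1, shBTK over control, in Mino (horizontal) against Z138 (vertical) for all tested symbols (grey) and the 32 genes (coloured by role). Outside the plotted axes lie 95 symbols. The genes spread along the Mino axis up to 0.79 and lie between −0.35 and 0.26 on the Z138 axis.

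The library that stood out was not the same for every gene. Mino control was the lowest of the 4 libraries for 20 of the 32 genes, where this held for 23.5% of all tested symbols, and Mino shBTK was the highest for 11, where this held for 23.8%. Z138 control, the library that stood apart, was the highest for 14, where this held for 19.6%. In CHAC1, DDIT3 and PSAT1 the Mino control was the lowest and Mino shBTK the highest. In all the other genes with the Mino control lowest, the highest value was found in Z138. TRIB3, CBS, PYCR1, SLC7A1, SLC1A4 and ASNS were among them. With 1 library per group, a low control and a high hairpin library cannot be told apart as the source of a ratio. In summed FPKM, the 35 genes made up 1.06% of the Mino shBTK total against 0.980% of the Mino control total, and 0.863% of the Z138 shBTK total against 0.933% of the Z138 control total. ATF5 alone made up 48.1% of that sum in Mino shBTK and 55.7% in Mino control, and 21.9% in Z138 shBTK and 24.9% in Z138 control.

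The genes whose promoters hold the core element and those whose promoters do not were set side by side as a description. The 9 genes with the element had a median Mino log2 ratio of 0.42 and ran from −0.04 in MTHFD1L to 0.79 in CHAC1. The 18 tested genes without it had a median of 0.22 and ran from −0.26 in EIF2AK4 to 0.76 in TRIB3. The ranges overlap almost entirely, and in Z138 the medians were −0.02 and −0.07. TRIB3, PSAT1 and CBS, which had no match in this window, had higher Mino ratios than ASNS, which had one.

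Other lists around the pathway were then examined; in each, 0 genes passed in limma in either direction, and the counts at an unadjusted p under 0.05 were 0 or 1 per list. The list of 29 further ATF4 targets had 27 tested members and medians of 0.14 (Mino) and 0.01 (Z138). In Mino 5 of them passed 0.32 upwards and 2 downwards, where 4.44% and 5.75% of all tested symbols did. SARS, the seryl-tRNA synthetase gene in that list, was at 146 FPKM in Mino shBTK against 108 in Mino control. In Z138 it was at 233 FPKM in Z138 shBTK against 231 in Z138 control. VEGFA, an angiogenic growth factor, went the other way in Mino, at 13.5 FPKM in Mino shBTK against 19.1 in Mino control. Cytosolic tRNA synthetases had medians of 0.18 (Mino) and 0.10 (Z138), and 3 of 19 passed 0.32 in Mino (4.44% of all symbols). That list shares SARS and other synthetase genes with the list of further ATF4 targets. TARS, the threonyl enzyme, had log2 ratios of 0.23 (Mino) and 0.20 (Z138).

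The list nearest to the programme in its Mino median was that of the ATF6 and XBP1 arms of the unfolded protein response, which raise folding capacity in the endoplasmic reticulum. Its 20 genes had medians of 0.31 (Mino) and close to 0 (Z138). In Mino 17 were above 0 (47.7% of all symbols) and 9 were past 0.32 (4.44%). In Z138 10 of the 20 were above 0 (55.3%). The genes named next were picked for the same sign in both lines. HSPA5, the main luminal chaperone, was at 131 FPKM in Mino shBTK against 91.5 in Mino control and at 285 FPKM in Z138 shBTK against 257 in Z138 control (mean log2 ratio 0.33, SE 0.13, adjusted p = 1.00 in limma). DNAJB9, another luminal co-chaperone, had log2 ratios of 0.46 (Mino) and 0.07 (Z138). DNAJC3, also a co-chaperone, had 0.28 and 0.23.

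The remaining lists concern eIF2 control or shared substrates, and no difference between lists was tested. The 15 tested genes of eIF2, its other kinases, its exchange factor and its phosphatases had medians of 0.02 (Mino) and 0.04 (Z138). PPP1R15A, the phosphatase subunit that ATF4 and CHOP induce to reverse eIF2 phosphorylation, was at 124 FPKM in Mino shBTK against 161 in Mino control and at 48.3 FPKM in Z138 shBTK against 50.9 in Z138 control. It was the 1 gene of that list past the bar downwards in Mino, where 5.75% of all symbols were. Other folate genes had medians of 0.14 and 0.06, and GGH, which trims polyglutamate from folate, was at 22.3 FPKM in Mino shBTK against 16.2 in Mino control. Methionine and glutathione genes had medians of −0.01 and 0.10. Other amino acid transporters had medians of 0.10 and 0.01, with 4 of 14 past 0.32 in Mino (4.44% of all symbols). SLC7A3, a cationic amino acid transporter, was at 49.0 FPKM in Mino shBTK against 38.7 in Mino control and at 0.0572 FPKM or less in Z138. Other amino acid enzymes had medians of 0.06 and −0.03. In Mino 9 of the 16 tested were above 0 (47.7% of all symbols). Past 0.32 in Mino were 2 upwards (4.44% of all symbols) and 0 downwards (5.75%). In that list ODC1, the first enzyme of polyamine synthesis, was at 179 FPKM in Mino shBTK against 222 in Mino control and at 298 FPKM in Z138 shBTK against 352 in Z138 control (mean log2 ratio −0.27, SE 0.11, adjusted p = 1.00 in limma). NRF2 targets, which share SLC7A11 with the programme, had medians of −0.07 and 0.04, and 4 of 14 were above 0 in Mino (47.7% of all symbols).

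**Figure D4:**
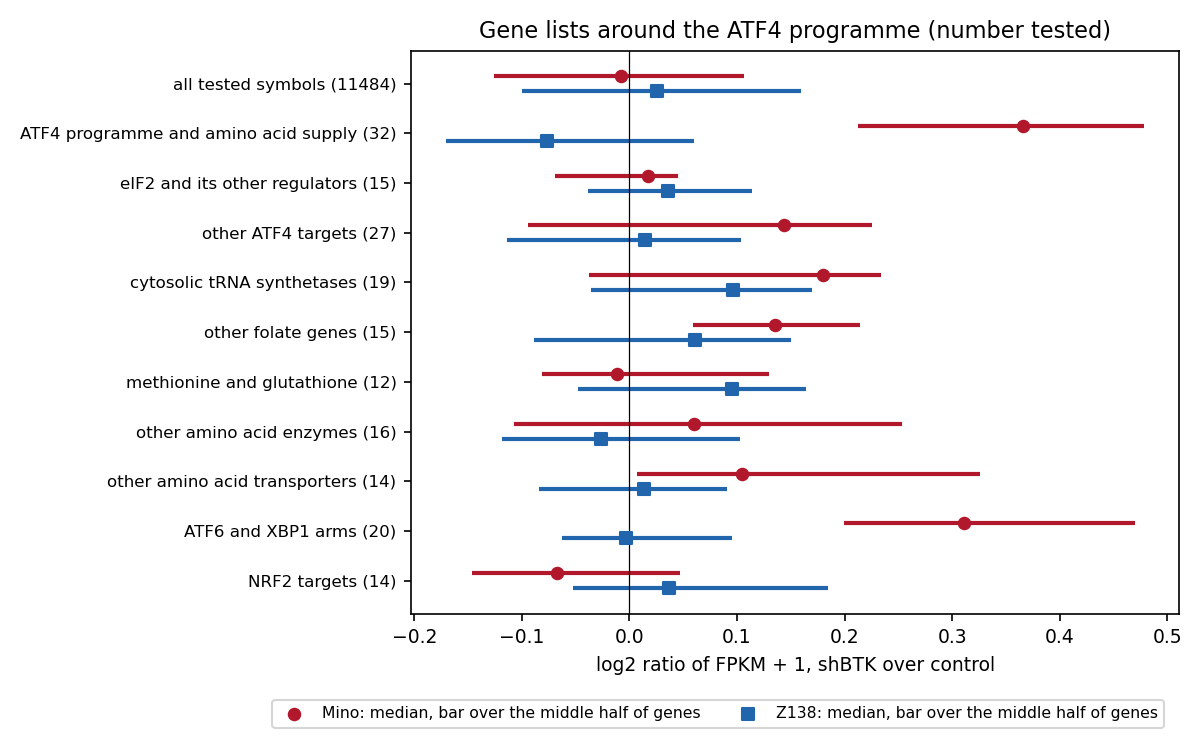
Median log2 ratio of FPKM + 1 (points) and interquartile range over genes (bars), shBTK over control, in Mino (red) and Z138 (blue), for all tested symbols, the 32 genes and 9 other lists; the number tested is in brackets. The 32 genes (0.37) and the ATF6 and XBP1 arms (0.31) have the highest Mino medians, and no Z138 median is above 0.10.

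The lines themselves differed in the programme far more than the hairpin and control libraries did. Z138 was set over Mino in the same limma model, in which the 2 vectors stand as replicates of each line. Of the 32 genes, 13 were higher and 6 lower in Z138 at an adjusted p under 0.05, where 67.4% of all symbols were called, 28.7% as higher and 38.8% as lower. The median log2 ratio of Z138 over Mino was 0.26 for the 32 genes and −0.12 for all tested symbols. At 2-fold, 7 genes were higher (11.5% of all symbols) and 3 lower (18.3%). Without the filter on low values 0 of the 32 passed. The GC and length correction was fitted within each line, so Z138 over Mino was not checked with it. Markers also moved with the line, and their part in these differences was not tested. CCND1, CD3E and CD3G were higher in Z138, and the epithelial markers, COL1A1 and CD5 lower. CD22, a B cell surface receptor, was at 5.96 and 3.34 FPKM in Z138 shBTK and control, against 102 and 107 FPKM in Mino shBTK and control.

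PYCR1 had the largest line difference, a mean of 3.58 in log2 units (SE 0.17, higher in 2 of 2 vectors, adjusted p = 1.25e-06 in limma), 3.22 between the shBTK libraries and 3.94 between the controls. VLDLR was higher in Z138 by 2.59 (SE 0.15, adjusted p = 2.52e-06 in limma), SHMT2 by 1.73 (SE 0.13, adjusted p = 1.26e-05) and CBS by 1.67 (SE 0.19, adjusted p = 0.000123). SLC7A1, MTHFD1L and SLC7A5 were higher in Z138 by 1.48, 1.36 and 1.11. The other 6 genes called higher (CEBPB, SLC1A4, TRIB3, EIF2AK3, SLC38A2 and ASNS) had ratios between 0.67 and 0.84.

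CTH stood at the other end, lower in Z138 by a log2 difference of −1.89 (SE 0.16, adjusted p = 2.49e-05 in limma). CBS, the enzyme before it in the same pathway, was thus higher and CTH lower in Z138. ATF5 had −1.21 (SE 0.12, adjusted p = 5.58e-05), EIF2AK4 −1.09, CEBPG −0.95 and ATF3 −0.89. SHMT1 had −0.36 (SE 0.13, adjusted p = 0.039 in limma), but its adjusted p was 0.139 with the libraries scaled by median ratios and 0.126 after quantile normalization. The kinases went opposite ways, with EIF2AK3 higher (0.72) and EIF2AK4 lower in Z138, and so did SHMT2 and SHMT1. ATF4 differed by 0.28 (SE 0.12, adjusted p = 0.0688 in limma) and did not pass. Its limma adjusted p was 0.0473 with the hairpin term left out, 0.0494 without symbols listed at 0 and 0.0242 with median-ratio scaling. After quantile normalization its limma adjusted p was 0.845 (log2 difference 0.03). In at least 1 of these settings PHGDH, PSPH, SLC7A11 and SLC1A5 also passed. By the model as reported DDIT3, CHAC1, SESN2, MTHFD2 and SLC3A2 did not pass either.

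**Figure D5:**
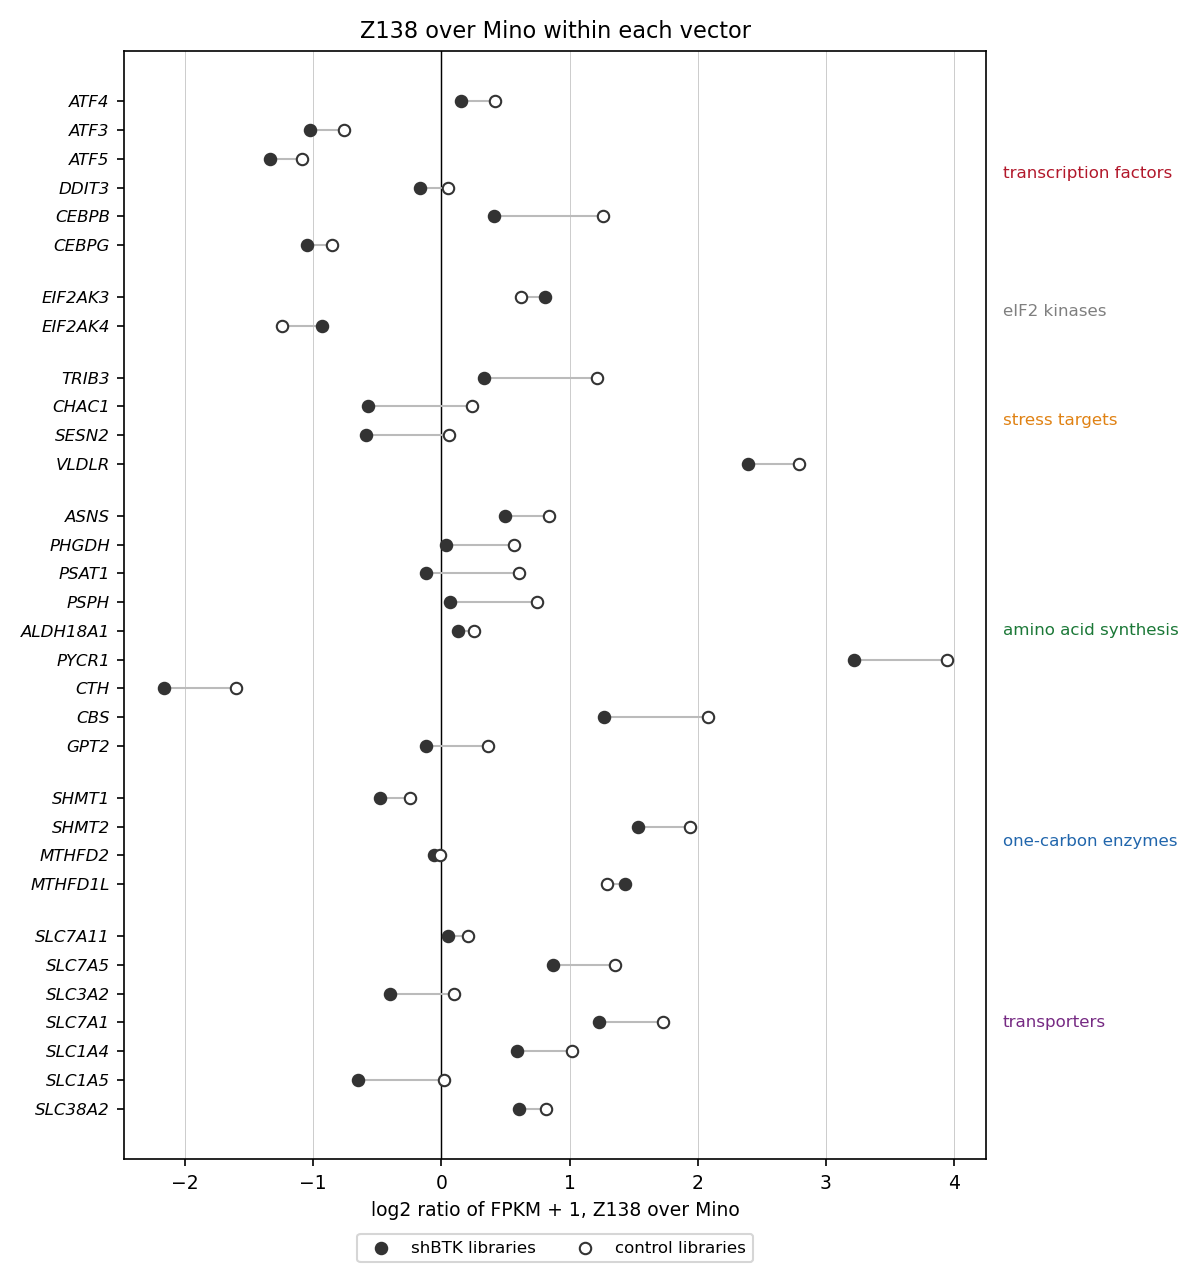
Log2 ratio of FPKM + 1, Z138 over Mino, for each of the 32 tested genes, between the shBTK libraries (filled) and between the control libraries (open). PYCR1 and VLDLR lie above 2 in both pairs, and CTH and ATF5 below −1 in both. In TRIB3, CEBPB, CBS and CHAC1 the shBTK point lies about 0.8 left of the control point.

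The line difference was smaller in size between the shBTK libraries than between the control libraries for 19 of the 32 genes, where this held for 54% of all symbols. CEBPB was higher in Z138 by 0.41 between the shBTK libraries and by 1.26 between the controls, and TRIB3 by 0.34 and 1.21. SLC1A5 and SESN2 lay further apart between the shBTK libraries, at −0.65 against 0.02 between the controls for SLC1A5 and at −0.59 against 0.06 for SESN2. CHAC1 had opposite signs in the pairs, with −0.57 between the shBTK libraries and 0.24 between the controls. Between the shBTK libraries alone, which leaves out the Z138 control, 6 of the 32 genes were at least 2-fold higher (11.5% of all symbols) and 4 lower in Z138 (17.9%). Between the control libraries, 10 were at least 2-fold higher (11.7%) and 3 lower (19.1%).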

How the data were processed

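Libraries of 4 cultures were made with an RNA library kit (TruSeq) after column extraction of RNA, as the labels' protocols say. The authors deposited 1 table of FPKM values with 1 column per library and 1 row per symbol, per the file headers. Per the submitters' processing notes, TopHat and hg19 were used. For the FPKM program, annotation and strand setting, nothing is stated: not given in the sources used here. FPKM are not counts, no depth could be recovered, and an exact 0 can be a failed estimate, so no fold is given for genes listed at 0.

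Values were analysed as log2(FPKM + 1) in the 11484 symbols whose mean reached 1 FPKM, with limma 3.58.1 in R 4.3.3 (line and hairpin as additive terms, mean-variance trend, Benjamini-Hochberg adjustment, 1 residual degree of freedom per gene). Libraries are paired by cell line, which is the block. The labels do not say whether cultures were independent, and p-values cover only the spread between these libraries. Within a line, the bar was a log2 ratio of 0.32. GC content and length came from each symbol's longest GENCODE 29 transcript (GRCh38), matched for 93.9% of tested symbols. Promoters came from RefSeq (GRCh38.p14); no coordinate was carried between builds. All 35 genes may be named; of each other list, up to 4 genes with the largest mean ratio and the same sign in both lines. The genes and the 9 other lists were chosen with earlier results of these data known. Alternatives covered pseudocount, filters, scaling, the block, zeros, moderation, GC and length.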

Additional observations from a re-analysis of the deposited data

Results flagged for a closer look

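In 11 genes of the programme the hairpin library lay above its control in Mino and below it in Z138 by at least 0.1 on the log2(FPKM + 1) scale in each line; with 1 pair of libraries per line the difference was not tested. The same held for 8.94% of all tested symbols. The log2 ratios in Mino and Z138 were 0.76 and −0.12 for TRIB3, 0.65 and −0.20 for CEBPB, and 0.11 and −0.29 for VLDLR. Among synthesis and one-carbon genes they were 0.53 and −0.14 for PSPH, 0.45 and −0.27 for PYCR1, 0.38 and −0.15 for PHGDH, 0.33 and −0.16 for GPT2, and 0.22 and −0.19 for SHMT2. Among transporters they were 0.46 and −0.20 for SLC1A5, 0.29 and −0.21 for SLC3A2, and 0.23 and −0.26 for SLC7A5. After the GC and length correction 3 of the 11 had Z138 ratios smaller than 0.1 in size: TRIB3 (−0.01), CEBPB (−0.096) and SLC1A5 (−0.098). SLC1A4 (0.41 in Mino and −0.15 in Z138) and SLC38A2 (0.24 and −0.16) then passed 0.1 in both lines, which gave 10 genes, where 8.15% of 10788 symbols did.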

How the results depend on the processing

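No gene of the programme passed the hairpin test under any of the 9 alternatives run. Over all symbols, 7 passed as higher and 7 as lower. The higher count was 0 without the filter on low values, 3 at a mean of at least 5 FPKM, 0 with no replicate block (the line left out), 22 without symbols listed at 0, 15 with median-ratio scaling, 1 with quantile normalization and 1 with the GC and length correction. The lower count was 0 without the filter and 0 with no replicate block. In Z138 over Mino, 13 genes of the programme were higher and 6 lower, and 0 and 0 without the filter. The GC and length correction was not among the alternatives for Z138 over Mino. In Mino 18 genes passed a log2 ratio of 0.32 and 5 were 1.5-fold higher. In Z138 the count past 0.32 downwards was 1, against 3 with median-ratio scaling and 0 with quantile normalization, and 0 were 1.5-fold lower. Signs of small ratios turned. For the hairpin, EIF2AK3 (0.01) became −0.0102 with median-ratio scaling and −0.0208 with the GC and length correction, SHMT2 (0.02) −0.0076 with median-ratio scaling, and SLC7A5 (−0.02) 0.0337 with quantile normalization and 0.0234 with the GC and length correction. For Z138 over Mino, DDIT3 (−0.06) became 0.0681 and MTHFD2 (−0.04) 0.0872 with median-ratio scaling, which put the median of all symbols at −0.01, against −0.12 as reported (0.05 with quantile normalization). The causes were not tested. The Mino median of the programme ran from 0.33 to 0.39 over the alternatives and the Z138 median from −0.13 to −0.06. Depth is unknown, and 1 library per group sets the precision. Leaving out either line's pair gives the ratio of the other line, a value with no test. Counts within 1 vector and sign counts on GC-corrected ratios were alternatives chosen after seeing the data. At 2-fold in Z138 over Mino, 6 genes were higher (11.5% of all symbols) and 4 lower (17.9%) between the shBTK libraries, and 10 higher (11.7%) and 3 lower (19.1%) between the controls.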
